A study of Mus musculus with 12 samples.

Results

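The mRNAs of 10 feedback inhibitors of receptor tyrosine kinase, RAS and MAPK signaling were followed in long-term hematopoietic stem cells (LT-HSCs), which sustain all blood lineages, from CML and normal mice. The genes were chosen by name as the Sprouty genes *Spry1*, *Spry2* and *Spry4*, the SPRED genes *Spred1* and *Spred2*, and the MAPK phosphatases *Dusp2*, *Dusp4*, *Dusp5*, *Dusp6* and *Dusp10*. They were 10 of the 48795 genes in the count table and 10 of the 14676 genes that passed a filter on low counts. *Dusp2* was the member that changed past the test's threshold, higher in the c-KIT lo than in the c-KIT hi fraction of normal LT-HSCs, and its level was low in normal c-KIT hi cells alone among the 4 groups. *Spry1* and *Dusp6* had their highest levels in CML c-KIT lo LT-HSCs, without overlap with the libraries of any other group, but did not pass the test. Lack of overlap was common. Of all genes that passed the filter, 27.6% lay higher without overlap in CML c-KIT lo than in CML c-KIT hi LT-HSCs. The share was 12.3% against normal c-KIT lo LT-HSCs, and the share of genes above all other groups was not counted.

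Binding of stem cell factor to c-KIT, or expression of the BCR-ABL kinase, activates RAS and through it RAF, MEK and the kinase ERK. Sprouty and SPRED proteins act near RAS and RAF to dampen this signal, and dual-specificity phosphatases (DUSPs) remove the activating phosphates from ERK, JNK or p38. ERK activity is known to induce many of these genes, so their mRNAs are commonly read as products of the pathway as well as its brakes.

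CML cells came from Scl-tTA-BCR-ABL mice, in which the tetracycline transactivator is driven by regulatory sequence of *Tal1* (also called *Scl*) in stem and progenitor cells and switches on *BCR-ABL1* when doxycycline is withdrawn. BM of these CD45.2 mice was transplanted into lethally irradiated CD45.1 wild-type recipients, so donor cells shared the recipients' BM in both states, and the normal group carried the same transgenes but was kept on doxycycline according to the methods, while the sample notes call it normal B6. The methods give both sexes and an age of 6 to 12 weeks for mice in the experiments in general. The age at sorting, after the transplant, is not given there. LT-HSCs were sorted from BM as lineage-negative cells positive for Sca-1, c-KIT and CD150 and negative for Flt3 and CD48, and divided by surface c-KIT with gates set on normal mice, which gave 4 groups of 3 libraries each, named here as in the sample titles: CL (CML, c-KIT lo), CH (CML, c-KIT hi), NL (normal, c-KIT lo) and NH (normal, c-KIT hi). The methods give more biological replicates per group than the 3 libraries analysed here, and nothing in the sources used here says how many mice made up a library, so p-values measure the spread between these libraries. In sorted cells, fewer cells of a type and less RNA per cell cannot be told apart.

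Counts on genes ranged from 17653931 to 20749935 in CL, 9730576 to 13213021 in CH, 14487608 to 31020852 in NL and 7753878 to 9843191 in NH libraries. The share of alignment entries that fell on genes was 55.8% to 57.3%, 26.7% to 37.1%, 43.9% to 60.6% and 24.4% to 28.3% in the same order of groups, so depth and this share moved with c-KIT. NL replicate 1 stood apart, with 9760 genes at 10 counts or more against 10823 to 13849 in the other libraries, a highest correlation of 0.75 with any other library, and 5 of the 10 members at 0 or 1 count. The 9 LT-HSC markers summed to 1517 to 1840 CPM in CL, 716 to 786 CPM in CH, 1932 to 3321 CPM in NL and 572 to 788 CPM in NH libraries, and none of the 9 was at 0 in any whole group. Of markers the gate should lack, *Flt3* and *Cd48* summed to 0.0332 to 58.0 CPM. The 9 neutrophil markers summed to 246 to 1845, 833 to 2368, 44.8 to 5876 and 87.4 to 980 CPM in the same order of groups. *Kit* itself averaged 510 ± 49.3 CPM in CL, 127 ± 82.6 CPM in CH, 363 ± 321 CPM in NL and 135 ± 7.32 CPM in NH LT-HSCs (SD, n = 3 each), and it passed the test in none of the comparisons.

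Per kilobase of exon, the scale on which levels of different genes can be set side by side, *Dusp2* was the highest member with a mean of 75.0 CPM per kb over the 12 libraries, above 92.8% of the tested genes. *Spry1* followed at 12.3, *Dusp6* at 11.8, *Dusp5* at 5.91 and *Spred1* at 3.98 CPM per kb. The low members were *Spry2* (1.60 CPM per kb), *Dusp4* (1.34), *Spred2* (1.10), *Dusp10* (1.09) and *Spry4* (0.142). Ranges over libraries overlapped between each member and the next in this order, and within NH LT-HSCs *Dusp2* averaged 19.9 ± 10.8 CPM per kb against 8.003 ± 2.54 for *Dusp6* and 4.48 ± 1.73 for *Spry1* (SD, n = 3 each). *Spry4* had 0 or 1 count in 7 of the 12 libraries, so its folds rest on few counts.

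**Figure D1:**
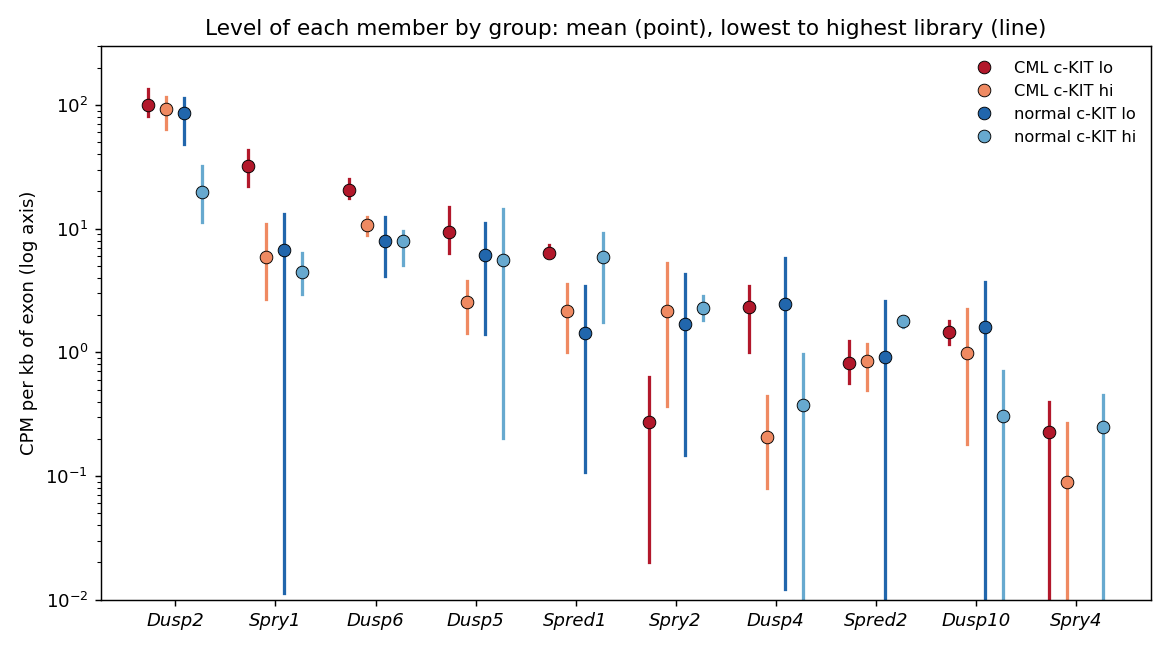
Level of each member per kilobase of exon in CPM (log axis) in CL (CML, c-KIT lo), CH (CML, c-KIT hi), NL (normal, c-KIT lo) and NH (normal, c-KIT hi) LT-HSCs; points are means of 3 libraries and lines run from the lowest to the highest library, reaching the bottom of the axis where a library had 0 counts. *Dusp2* lies highest in every group, and its NH mean of 19.9 CPM per kb lies below its other 3 means. *Spry4* has no point in NL, where no count was found.

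Across the comparisons, few members passed edgeR's quasi-likelihood test at an adjusted p under 0.05 (Benjamini-Hochberg over all 14676 tested genes). In NL versus NH LT-HSCs, 1 of the 10 members was called, *Dusp2*, and 2 had an unadjusted p under 0.05, where 6.5% of all tested genes were called. DESeq2 also called 1 and limma-voom 0, where they called 2993 and 2 of all genes. In CL versus CH LT-HSCs, edgeR called 0 members, with 0 at an unadjusted p under 0.05, where 8.44% of tested genes were called, while DESeq2 called 0 and limma-voom 3. Over all genes, DESeq2 called 3199 in this comparison and limma-voom 6282, against 1238 with edgeR. In CL versus NL LT-HSCs, edgeR called 0 members, with 2 at an unadjusted p under 0.05, against a background of 0.0954%, and DESeq2 called 1 and limma-voom 0. Of all genes, DESeq2 called 562 in this comparison and limma-voom 6, against 14 with edgeR. In CH versus NH LT-HSCs, edgeR called 0 members, with 1 at an unadjusted p under 0.05, against a background of 0.0204%, and DESeq2 called 1 and limma-voom 0. Here DESeq2 called 190 of all genes and limma-voom 81, against 3 with edgeR. For the difference between the CL versus CH and the NL versus NH changes, edgeR called 0 members, with 3 at an unadjusted p under 0.05, and 0% of all tested genes, and DESeq2 and limma-voom also called 0 members. Of all genes, DESeq2 called 286 for this difference, limma-voom 0, and edgeR without the filter on low counts 137.

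The members did not move as a block. Their median log2 fold change was 1.124 in CL versus CH LT-HSCs, with 8 of 10 above 0, beside a median of 0.05 over all tested genes. It was 0.06 in NL versus NH LT-HSCs, with 5 of 10 above 0, beside 0.16 over all tested genes. CL versus NL LT-HSCs gave 0.41, with 6 of 10 above 0, beside -0.13, and CH versus NH LT-HSCs gave -0.48, with 4 of 10 above 0, beside 0.03. Both medians that involve NL LT-HSCs, where *Spry4* had 0 counts, were the same with *Spry4* at the bound that its counts allow. Size factors by medians of ratios moved the all-gene median of NL versus NH LT-HSCs to 0.02 and the split of called genes to 322 higher and 547 lower, against 455 higher and 499 lower with TMM. Offsets for exonic length, fitted per library, moved the all-gene medians to -0.15 in CL versus CH, 0.44 in NL versus NH and -0.66 in CL versus NL LT-HSCs, and the called genes of CL versus CH LT-HSCs to 17 higher and 358 lower, against 427 higher and 811 lower without it.

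Groups that did not overlap, meaning that every library of one group lay above every library of the other, were counted beside the same count over all tested genes. In CL versus CH LT-HSCs, 5 of the 10 members lay higher without overlap (*Spry1*, *Spred1*, *Dusp4*, *Dusp5* and *Dusp6*) and 0 lower, beside 27.6% of tested genes higher and 23.6% lower. In NL versus NH LT-HSCs, 1 member lay higher (*Dusp2*) and 0 lower, beside 11% and 12.6% of tested genes. In CL versus NL LT-HSCs, 3 members lay higher (*Spry1*, *Spred1* and *Dusp6*) and 0 lower, beside 12.3% and 7.84%. In CH versus NH LT-HSCs, 1 member lay higher (*Dusp2*) and 1 lower (*Spred2*), beside 7.97% and 6.36%. Without NL replicate 1, an alternative chosen after seeing the data, 4 members lay higher (*Spry1*, *Dusp2*, *Dusp4* and *Dusp10*) and 1 lower (*Spry2*) in NL versus NH LT-HSCs, beside 16% and 14.5% of tested genes. Without it, 4 members lay higher (*Spry1*, *Spred1*, *Dusp5* and *Dusp6*) and 0 lower in CL versus NL LT-HSCs, beside 17.3% and 11.6%.

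**Figure D2:**
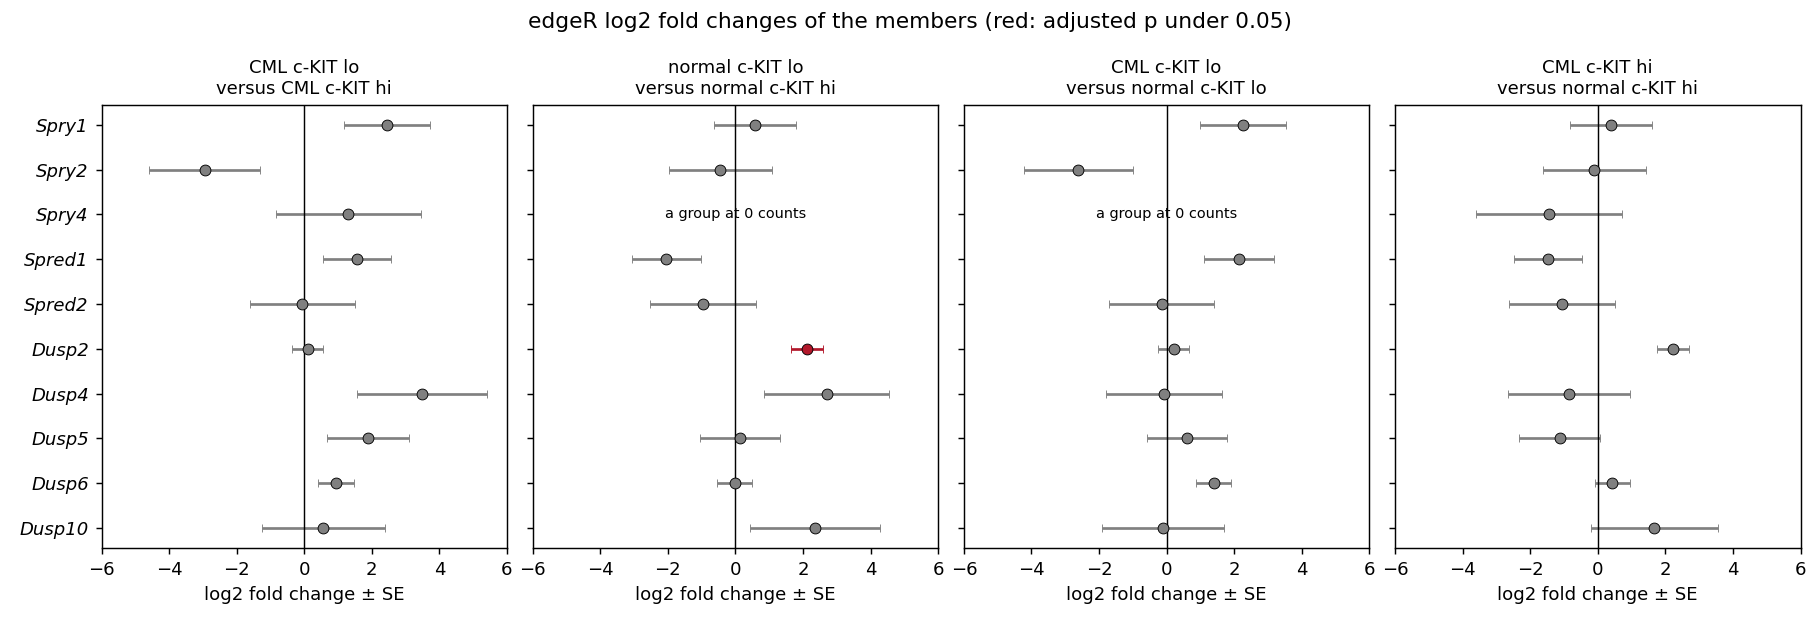
Log2 fold changes from edgeR (horizontal axis) with their SE for the 10 members in each of the 4 comparisons; red marks an adjusted p under 0.05, and 2 entries of *Spry4* carry no point because NL had 0 counts. The red point is *Dusp2* at 2.12 in NL versus NH LT-HSCs, and its point of 2.22 in CH versus NH LT-HSCs is gray.

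*Dusp2* (ENSMUSG00000027368.6, GRCm38 chr2:127336159-127338376, plus strand) encodes a nuclear phosphatase of ERK and p38, induced early after stimulation of blood cells. It was present at 270, 169 and 164 CPM in CL, 234, 197 and 127 CPM in CH, 227, 96.8 and 198 CPM in NL and 22.8, 32.8 and 64.2 CPM in NH libraries. The 3 NH libraries lay below each of the other 9, and the other 3 groups overlapped with one another. In NL versus NH LT-HSCs *Dusp2* rose by a log2 fold change of 2.12 ± 0.48 (SE), a 4.35-fold difference (edgeR adjusted p = 0.0279). In CH versus NH LT-HSCs the log2 fold change was 2.22 ± 0.48 (edgeR adjusted p = 0.292), where DESeq2 called it (log2 fold change 2.15, adjusted p = 0.00675). Between CL and CH LT-HSCs the log2 fold change was 0.11 ± 0.46, and between CL and NL LT-HSCs it was 0.21 ± 0.46. The difference between the CL versus CH and the NL versus NH changes was -2.01 ± 0.66 on the log2 scale (edgeR adjusted p = 0.328), so it did not pass the test over all genes.

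The call of *Dusp2* in normal LT-HSCs was lost with limma-voom (adjusted p = 0.245), with only the normal libraries in the edgeR fit (adjusted p = 0.137), with the replicate number as a block (adjusted p = 0.0622), and when any of 6 libraries was left out (CL replicates 1, 2 and 3, NL replicate 1, and NH replicates 1 and 2, with edgeR adjusted p of 0.0516, 0.0533, 0.0513, 0.0884, 0.0881 and 0.108), while its log2 fold change stayed between 1.86 and 2.65. With libraries thinned to equal depth the log2 fold change was 1.95 (edgeR adjusted p = 0.0313), and with each library's trend on exonic length taken out it was 2.41 (edgeR adjusted p = 0.0257). The LT-HSC marker sum was also higher in NL than in NH libraries (1932 to 3321 against 572 to 788 CPM), and so was the sum of 6 B cell markers (144 to 374 against 78.7 to 92.4 CPM) and of 7 endothelial and stromal markers (133 to 141 against 14.9 to 97.5 CPM), with *Pax5* and 3 of the 7 endothelial and stromal markers at 0 in NL and *Cd79a* at 0 in NH libraries. In CH against NH libraries the 6 T and NK cell markers summed to 310 to 1095 against 154 to 206 CPM, the 6 B cell markers to 114 to 175 against 78.7 to 92.4 CPM, and the 4 mast cell and basophil markers to 82.5 to 731 against 9.94 to 60.2 CPM, with *Cd3e* and 3 of the 6 B cell markers at 0 in CH. The 6 megakaryocyte markers went the other way, with 1161 to 2368 CPM in CH against 2968 to 11582.5 CPM in NH libraries. In NL libraries they summed to 1041 to 4522 CPM, which overlapped with NH. The part of these cells in the *Dusp2* levels was not tested.

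The genes whose log2 CPM followed *Dusp2* most closely over the 12 libraries were *Tnfrsf12a*, which encodes the receptor of the cytokine TWEAK (Pearson r = 0.95), and *Rhoh*, which encodes a GTPase of blood cells (r = 0.95). *Rhoh* averaged 104 CPM in CL, 130 CPM in CH, 111 CPM in NL and 28.3 CPM in NH LT-HSCs. These correlations, and those given below for other members, describe the same 12 libraries and share their depth and grouping.

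**Figure D3:**
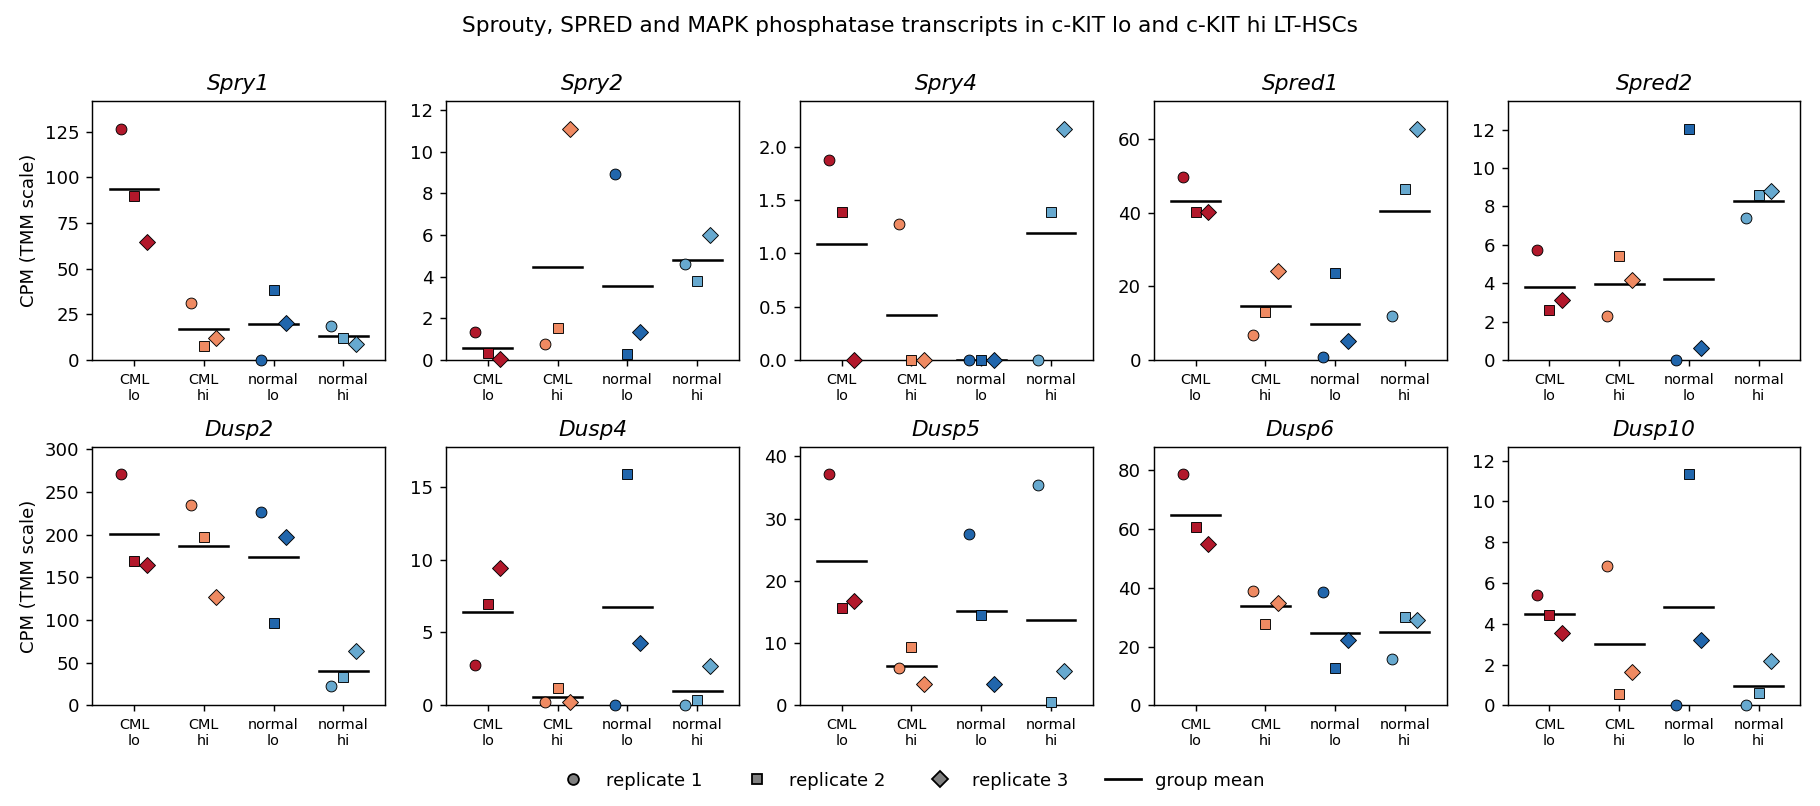
CPM on TMM-scaled library sizes (vertical axis, from 0) of each member in the 3 libraries of CL, CH, NL and NH LT-HSCs; symbols mark the replicate number and black lines the group means. *Dusp2* is low in the NH libraries (22.8 to 64.2 CPM), and *Spry1* (64.5 to 127 CPM) and *Dusp6* (54.9 to 78.7 CPM) are highest in the CL libraries.

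Promoter sequence of the members on which the results turn is shown as the 250 bases before the RefSeq start (GRCm38.p6), which the tables hold for 8 of the 10 members, with *Dusp4* and *Spry4* missing. They are the called member *Dusp2*, its nuclear relative *Dusp5*, and the members highest in CL LT-HSCs, *Dusp6* and *Spry1*. The windows are chr2:127335909-127336158 for *Dusp2*, chr19:53528895-53529144 for *Dusp5*, chr10:99262981-99263230 for *Dusp6* and chr3:37639697-37639946 for *Spry1*, each on the plus strand. Capitals mark matches to the motifs searched.
Dusp2: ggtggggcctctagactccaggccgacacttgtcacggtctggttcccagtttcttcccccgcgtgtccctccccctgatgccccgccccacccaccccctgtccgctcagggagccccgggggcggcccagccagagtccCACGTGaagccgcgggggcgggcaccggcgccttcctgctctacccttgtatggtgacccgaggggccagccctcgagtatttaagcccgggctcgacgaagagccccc
Dusp5: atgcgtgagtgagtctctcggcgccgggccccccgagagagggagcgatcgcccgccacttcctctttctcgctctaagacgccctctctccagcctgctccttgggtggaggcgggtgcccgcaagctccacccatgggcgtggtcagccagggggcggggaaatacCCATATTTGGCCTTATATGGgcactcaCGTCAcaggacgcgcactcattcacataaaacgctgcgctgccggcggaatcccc
Dusp6: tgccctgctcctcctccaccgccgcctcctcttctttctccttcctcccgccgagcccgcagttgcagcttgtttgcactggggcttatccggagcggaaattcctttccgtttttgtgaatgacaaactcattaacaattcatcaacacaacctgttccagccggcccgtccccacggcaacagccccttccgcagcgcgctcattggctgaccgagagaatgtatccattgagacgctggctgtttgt
Spry1: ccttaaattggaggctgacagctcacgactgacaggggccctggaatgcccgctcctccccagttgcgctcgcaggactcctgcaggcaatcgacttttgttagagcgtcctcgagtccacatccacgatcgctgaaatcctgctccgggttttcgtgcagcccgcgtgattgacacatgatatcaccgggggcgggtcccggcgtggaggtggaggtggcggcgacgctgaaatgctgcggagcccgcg
On both strands, in windows that run on to 50 bases after the start, the search took the CArG box bound by serum response factor, the cyclic AMP response element TGACGTCA (CRE) and its TGACG core, which lies within the full element, the AP-1 site TGANTCA, the E-box CACGTG and the ETS core CCGGAA. *Dusp5* held a pair of adjoining CArG boxes, at -82 to -73 and -72 to -63 from the start, and 1.63% of 32817 promoter windows of 300 bases held any. It also held a CRE core at -55 to -51, as 20.8% of windows did. *Dusp2* held an E-box at -109 to -104, found in 7.15% of windows, and a CRE core at 5 to 9 after the start. *Spred2* held a CRE core and *Spry2* an ETS core (14.9% of windows), and no member held the full CRE (1.79%) or the AP-1 site (7.81%). The CRE core, in 3 of the 8 windows, was the one motif of this search that more than 1 member held.

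*Dusp6* (ENSMUSG00000019960.7, chr10:99263231-99267489) encodes the cytoplasmic phosphatase specific for ERK. It was present at 78.7, 60.6 and 54.9 CPM in CL, 38.8, 27.6 and 34.9 CPM in CH, 38.7, 12.9 and 22.4 CPM in NL and 15.9, 30.2 and 29.1 CPM in NH libraries. The CL libraries lay above the other 9, which overlapped between groups. The log2 fold change was 0.94 ± 0.52 (SE) against CH (edgeR adjusted p = 0.271) and 1.39 ± 0.53 against NL LT-HSCs (edgeR adjusted p = 0.283), where DESeq2 called it (adjusted p = 0.0485). With only the CML libraries in the edgeR fit the adjusted p against CH was 0.0420. With exonic length offsets the log2 fold change was smaller, at 0.67 against CH (edgeR adjusted p = 0.601). Against NL LT-HSCs it was then 0.78 (edgeR adjusted p = 0.471). The genes closest to *Dusp6* over the 12 libraries were *Marcksl1* (Pearson r = 0.97), which encodes an actin-binding protein, and *Znrf1* (r = 0.93), which encodes a ubiquitin ligase.

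*Dusp5* (ENSMUSG00000034765.6, chr19:53529109-53542431) encodes a nuclear phosphatase specific for ERK. Its levels were 37.1, 15.7 and 16.8 CPM in CL, 5.96, 9.38 and 3.51 CPM in CH, 27.6, 14.5 and 3.45 CPM in NL and 35.4, 0.506 and 5.48 CPM in NH libraries. The CML fractions did not overlap, whereas both normal fractions spanned most of the whole range. In CL versus CH LT-HSCs its log2 fold change was 1.88 ± 1.22 (edgeR adjusted p = 0.345). Of its exonic bases, 22.1% are shared with another annotated gene, *AC137853.2*, and unstranded reads there cannot be assigned.

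*Dusp4* (ENSMUSG00000031530.6, chr8:34807297-34819894), whose product is a nuclear phosphatase of ERK, JNK and p38, was present at 2.77, 6.93 and 9.42 CPM in CL and 0.256, 1.21 and 0.220 CPM in CH libraries. It was at 0.0332, 15.8 and 4.28 CPM in NL and 0, 0.379 and 2.68 CPM in NH libraries. The CML fractions did not overlap, and in normal LT-HSCs the overlap came from NL replicate 1, which had 1 count. *Dusp4* had a log2 fold change of 3.49 ± 1.92 in CML (edgeR adjusted p = 0.264) and 2.71 ± 1.85 in normal LT-HSCs (edgeR adjusted p = 0.391).

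*Dusp10* (ENSMUSG00000039384.8, chr1:184013302-184075636), whose product acts on JNK and p38 rather than ERK, was at 5.42, 4.42 and 3.55 CPM in CL, 6.82, 0.552 and 1.65 CPM in CH, 0, 11.3 and 3.20 CPM in NL and 0, 0.632 and 2.17 CPM in NH libraries. All 4 groups overlapped. Its log2 fold changes were 0.57 ± 1.81 in CL versus CH and 2.36 ± 1.92 in NL versus NH LT-HSCs. Over the 12 libraries its log2 CPM followed that of *Dusp4* (Pearson r = 0.76). Both genes had 0 or 1 count in NL replicate 1 and NH replicate 1, and the weight of these libraries in r was not tested.

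*Spry1* (ENSMUSG00000037211.12, chr3:37639947-37644598) encodes a Sprouty protein, which is recruited to the membrane after receptor activation and limits RAS-ERK signaling. It was present at 127, 89.8 and 64.5 CPM in CL, 31.4, 7.83 and 11.9 CPM in CH, 0.0332, 38.3 and 20.1 CPM in NL and 18.5, 11.9 and 8.67 CPM in NH libraries. The CL libraries lay above the other 9, and NL replicate 1, with 1 count, lay below all others. The log2 fold change was 2.46 ± 1.28 (SE) against CH (edgeR adjusted p = 0.238) and 2.27 ± 1.26 against NL LT-HSCs (edgeR adjusted p = 0.459). It was 0.58 ± 1.22 in NL versus NH LT-HSCs. With only the CML libraries in the edgeR fit the adjusted p against CH was 0.0115, and with limma-voom 0.00776. With exonic length offsets the log2 fold change against CH was 2.32 (edgeR adjusted p = 0.346). Of its exonic bases, 24.4% are shared with the annotated gene *Gm42922*.

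*Spry2* (ENSMUSG00000022114.4, chr14:105891947-105896819), a Sprouty gene whose product binds CBL and GRB2, had its lowest mean in CL LT-HSCs. It was at 1.33, 0.347 and 0.0422 CPM in CL, 0.767, 1.54 and 11.1 CPM in CH, 8.92, 0.307 and 1.34 CPM in NL and 4.63, 3.79 and 5.99 CPM in NH libraries. The CL libraries lay below all NH libraries and overlapped with the other groups. Its log2 fold change was -2.95 ± 1.64 against CH (edgeR adjusted p = 0.269) and -2.61 ± 1.62 against NL LT-HSCs (edgeR adjusted p = 0.518). Over the 12 libraries its log2 CPM was inversely related to that of *Dusp4* (Pearson r = -0.76) and *Spry1* (r = -0.66). In NL replicate 1 *Dusp4* and *Spry1* had 1 count each and *Spry2* 269, and the weight of this library in r was not tested.

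*Spry4* (ENSMUSG00000024427.6), whose product restrains RAF activation, was near the limit of detection. It was at 1.87, 1.39 and 0 CPM in CL, 1.28, 0 and 0 CPM in CH, 0 CPM in all 3 NL and 0, 1.39 and 2.17 CPM in NH libraries. Against a floor of 3 counts over the NL group, it was at least 26.9-fold lower in NL than in NH LT-HSCs (28 counts, edgeR adjusted p = 0.125) and at least 24.0-fold higher in CL (80 counts) than in NL LT-HSCs (edgeR adjusted p = 0.299). Each of these groups held a library at 0, so the groups overlapped. The floor takes no account of the spread between NL libraries.

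*Spred1* (ENSMUSG00000027351.14, chr2:117121374-117182279), whose product brings neurofibromin to the membrane to inactivate RAS, had fold changes of opposite sign in CML and normal LT-HSCs. It was at 49.6, 40.0 and 40.1 CPM in CL, 6.82, 12.9 and 24.0 CPM in CH, 0.730, 23.5 and 5.05 CPM in NL and 11.9, 46.4 and 62.7 CPM in NH libraries. The CML fractions did not overlap, and the normal fractions did. The log2 fold change was 1.57 ± 1.01 (SE) in CL versus CH (edgeR adjusted p = 0.341) and -2.05 ± 1.02 in NL versus NH LT-HSCs (edgeR adjusted p = 0.225). The difference between these changes was 3.61 ± 1.43 on the log2 scale (edgeR adjusted p = 0.387), and it did not pass the test. With exonic length offsets the log2 fold change was 0.87 in CL versus CH LT-HSCs (edgeR adjusted p = 0.586). It was then -2.07 in NL versus NH LT-HSCs (edgeR adjusted p = 0.109). Genes close to *Spred1* over the 12 libraries were *E2f8*, which encodes a cell cycle repressor (Pearson r = 0.98), and *Nacc1*, which encodes a transcriptional regulator (r = 0.97).

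*Spred2* (ENSMUSG00000045671.17, chr11:19924375-20024026), whose product also restrains RAS-ERK signaling, was at 5.73, 2.60 and 3.13 CPM in CL, 2.30, 5.41 and 4.17 CPM in CH, 0, 12.04 and 0.639 CPM in NL and 7.37, 8.60 and 8.80 CPM in NH libraries. The CML libraries of both fractions lay below the NH libraries. For CH versus NH LT-HSCs its log2 fold change was -1.06 ± 1.57 (edgeR adjusted p = 0.980). Its log2 CPM followed that of *Spred1* over the 12 libraries (Pearson r = 0.84). In NL replicate 1 *Spred2* had 0 counts and *Spred1* 22, and the weight of this library in r was not tested.

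At the median, the members spread more between libraries than all tested genes did. The median coefficient of variation of the 10 members was 38.6% in CL, 66.99% in CH, 121% in NL and 59.3% in NH libraries, beside 21.02%, 52.6%, 83.1% and 52.8% over all tested genes. With only the CML libraries in the edgeR fit, 5 members passed the test in CL versus CH LT-HSCs, namely *Spry1*, *Spred1*, *Dusp4*, *Dusp5* and *Dusp6* (adjusted p from 0.0115 to 0.0420), and 4807 genes did, against 1238 in the fit of all 12 libraries. The smaller fit had its own spread estimate, filter and TMM factors, and the part of each was not tested. Without NL replicate 1, *Spry1* was called in CML.

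Of the related genes outside the 10, *Dusp1*, which encodes an early-induced nuclear phosphatase of JNK, p38 and ERK, lay above *Dusp2* per kilobase in every group (group means 736, 599, 224 and 79.0 CPM per kb in CL, CH, NL and NH). It was present at 3528, 2350 and 1430 CPM in CL, 3583, 1601 and 768 CPM in CH, 741, 543 and 945 CPM in NL and 222, 203 and 360 CPM in NH libraries. NH libraries lay below the other 9 for *Dusp1* as for *Dusp2*. Its log2 fold change was 1.51 ± 0.57 in NL versus NH (edgeR adjusted p = 0.119) and 2.92 ± 0.60 in CH versus NH LT-HSCs (edgeR adjusted p = 0.210). *Dusp7*, whose product is cytoplasmic and acts on ERK, averaged 21.9 ± 8.51 CPM in CL against 4.49 ± 3.30 CPM in CH, and 29.5 ± 23.9 CPM in NL against 7.55 ± 2.60 CPM in NH LT-HSCs (SD, n = 3 each), and was not called. *Dusp9* and *Dusp16* had group means of 0.552 to 3.91 CPM and 3.68 to 14.1 CPM and were not called, *Spred3* had 67, 14, 1 and 28 counts in CL, CH, NL and NH and was not called, and *Dusp8* did not pass the filter on low counts.

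**Figure D4:**
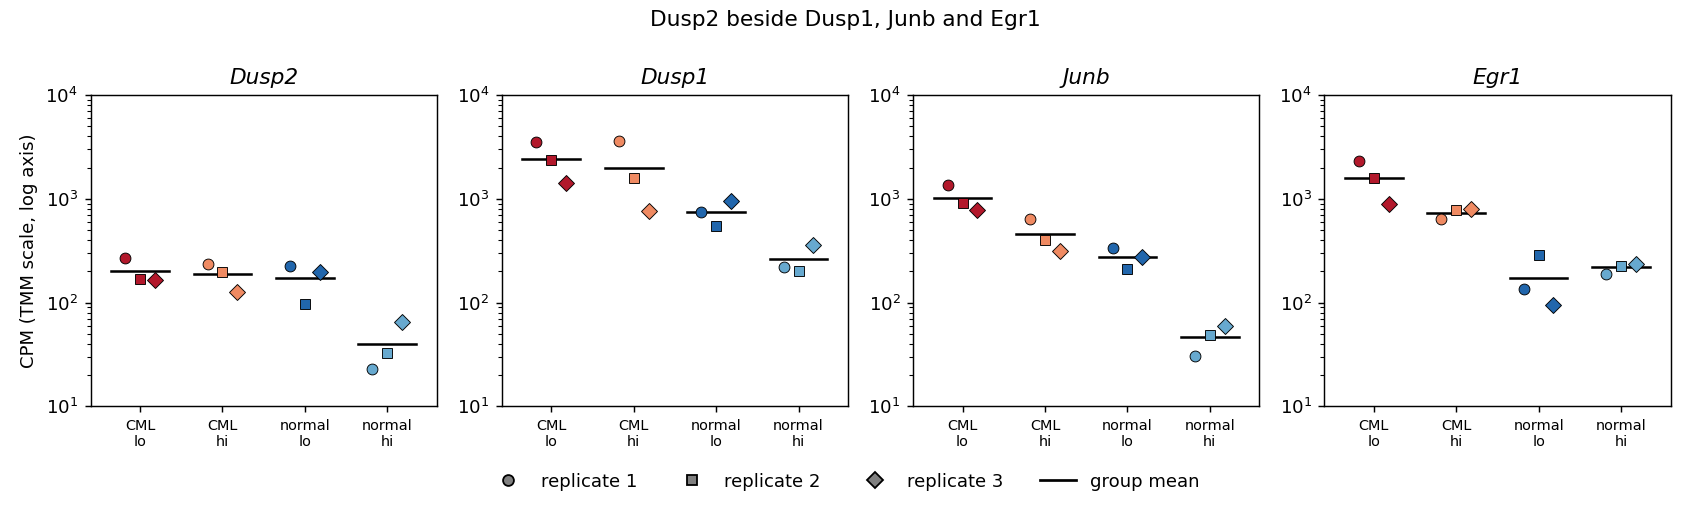
CPM (log axis) of *Dusp2* beside *Dusp1*, *Junb* and *Egr1* in the libraries of each group, with symbols for the replicate number and black lines for group means. NH libraries lie lowest for *Dusp2*, *Dusp1* and *Junb*, whereas both normal fractions lie below both CML fractions for *Egr1*.

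Genes induced through ERK were measured beside the inhibitors. In NL versus NH LT-HSCs, 1 of the 16 tested genes of this list rose, *Junb*, an AP-1 subunit (272 ± 61.2 against 46.0 ± 14.4 CPM, SD, n = 3 each, log2 fold change 2.56 ± 0.43 SE, edgeR adjusted p = 0.0146). *Junb* also rose in CH versus NH LT-HSCs (453 ± 172 against 46.0 ± 14.4 CPM, edgeR adjusted p = 0.0324), again 1 of 16. In CL versus NL LT-HSCs *Egr1*, an early-response transcription factor, was the 1 called gene (1599 ± 708 against 171 ± 101 CPM, log2 fold change 3.22 ± 0.50, edgeR adjusted p = 0.0413), and in CL versus CH LT-HSCs it was *Myc*, a driver of growth (461 ± 54.4 against 190 ± 39.3 CPM, log2 fold change 1.28 ± 0.32, edgeR adjusted p = 0.0333). None of the 16 fell in these comparisons. The shares of all tested genes called were 6.5% in NL versus NH, 0.0204% in CH versus NH, 0.0954% in CL versus NL and 8.44% in CL versus CH LT-HSCs, so 1 of 16 in NL versus NH and in CL versus CH was near the background. Each of these calls depended on single libraries. *Junb* was not called in NL versus NH without NL replicate 1 or NH replicate 1 or 2 (edgeR adjusted p up to 0.0584), nor in CH versus NH without any 1 of 8 libraries, all but CL replicate 1, CH replicate 3 and NL replicates 1 and 2 (up to 0.383). *Egr1* was not called without any 1 of 10 libraries, all but CL replicate 3 and NL replicate 2 (up to 0.222), and *Myc* without any 1 of 7, the CL replicates, CH replicates 2 and 3 and NH replicates 2 and 3 (up to 0.152). Among the 8 alternatives other than leaving out a library, each of these calls was lost under 2 to 4.

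In the RAS-RAF-MEK-ERK core, *Map2k1*, which encodes a MEK kinase, was among the genes that rose in CL versus CH LT-HSCs (log2 fold change 1.45 ± 0.39, edgeR adjusted p = 0.0407), and 2 of 16 tested genes rose in NL versus NH LT-HSCs, *Rras* and *Araf*, which encode a RAS-related GTPase and a RAF kinase (2.32 ± 0.57 and 1.403 ± 0.38, edgeR adjusted p = 0.0373 and 0.0482), where 8.44% and 6.5% of all tested genes were called. *Mapk3*, which encodes an ERK kinase on which *Dusp6* acts, was called in none of the comparisons. Upstream, *Vav1*, an exchange factor of blood cells, was the 1 of 15 receptor-proximal activators that rose in CL versus CH (2.24 ± 0.47, edgeR adjusted p = 0.0181) and in NL versus NH LT-HSCs (1.81 ± 0.46, edgeR adjusted p = 0.0409). Of 16 other inhibitors of RAS, *Rasal3*, a RAS GTPase-activating protein, rose in CL versus CH LT-HSCs (2.45 ± 0.64, edgeR adjusted p = 0.0379) and none was called elsewhere. In CL versus CH LT-HSCs the calls of *Vav1*, *Map2k1* and *Rasal3* were each lost without any 1 of the CL replicates or CH replicates 2 and 3, that of *Map2k1* also without NH replicate 2 or 3, that of *Rasal3* also without CH replicate 1 or NH replicate 2, and each also with exonic length offsets (edgeR adjusted p up to 0.269). Between NL and NH LT-HSCs each call was lost with limma-voom, with only the normal libraries in the fit, with the replicate block and without any 1 of 10 of the 12 libraries, all but CH replicate 1 and NL replicate 3 for *Vav1*, CH replicate 1 and NL replicate 2 for *Rras* and NL replicates 2 and 3 for *Araf* (edgeR adjusted p up to 0.127, 0.134 and 0.176), and that of *Araf* under 7 of the 8 alternatives other than leaving out a library.

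Of 13 ERK effectors, *Rps6ka1*, which encodes a kinase activated by ERK, rose in CL versus CH (2.02 ± 0.46, edgeR adjusted p = 0.0234) and in NL versus NH LT-HSCs (1.81 ± 0.46, edgeR adjusted p = 0.0403), and *Mknk1*, which encodes another such kinase, rose in CL versus CH LT-HSCs (1.97 ± 0.52, edgeR adjusted p = 0.0383). Of 14 JNK and p38 pathway kinases, *Map2k4* (2.31 ± 0.60, edgeR adjusted p = 0.0359) and *Mapkapk2* (2.14 ± 0.57, edgeR adjusted p = 0.0397) rose in CL versus CH LT-HSCs. The shares of all tested genes called were 8.44% in CL versus CH and 6.5% in NL versus NH LT-HSCs. In NL versus NH LT-HSCs *Mapk8* and *Mapk11*, which encode a JNK and a p38 kinase, had 0 counts in NL against 100 and 42 counts in NH. Against a floor of 3 counts over the NL group, they were at least 96.0-fold and 40.3-fold lower (edgeR adjusted p = 0.0241 and 0.0479). This floor takes no account of the spread between NL libraries. The 4 calls in CL versus CH LT-HSCs were each lost without any 1 of the 6 CML libraries, with the replicate block and with exonic length offsets, and also without NH replicate 2 for *Mknk1* and without NH replicate 2 or 3 for *Mapkapk2* (edgeR adjusted p up to 0.247). Between NL and NH LT-HSCs the calls were each lost with limma-voom and with the replicate block. They were also lost without any library but NL replicate 3 for *Rps6ka1*, without any library but CH replicate 1 for *Mapk11*, and without CL replicate 1 or 2, NL replicate 1 or any NH replicate for *Mapk8* (edgeR adjusted p up to 0.118, 0.129 and 0.0766). None of 8 atypical DUSPs, which lack the MAPK-binding domain, was called by edgeR, with 1 at an unadjusted p under 0.05 in each of the 5 comparisons.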

How the data were processed

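RNA-Seq counts of 12 libraries of LT-HSCs, 3 per group, were used. cDNA was made with the SMARTer Ultra Low Input kit and libraries with Nextera XT, which does not mark strand. The authors aligned reads with STAR 2.5.3a to GRCm38 (Gencode M11), assigned them with HTSeq 0.9.1 and deposited whole-number counts per gene without normalization. Their notes also name DESeq2 1.22.2 and DRAGEN. Classes of reads that HTSeq assigns to no gene (501996 to 3545339 entries outside genes and 8196738 to 28196128 for reads matching several places, per library) were left out of library sizes. Reads of near-identical or overlapping genes are uncertain. GENCODE M21, an annotation of the same assembly, gave gene symbols, coordinates and exonic lengths and matched 48349 of 48795 gene identifiers.

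edgeR 4.0.16 (R 4.3.3) was used with filterByExpr by group, TMM and the quasi-likelihood F test, with 1 mean per group in 1 fit of all 12 libraries and Benjamini-Hochberg adjustment over 14676 genes. CPM used TMM-scaled sizes. Errors are SDs over libraries or SEs. The SEs were derived from the F statistic and the log2 fold change before edgeR's small prior count, whereas the printed fold changes include that prior count. The main test follows the unit, since the authors used DESeq2, which was an alternative here (1.42.0). The other alternatives were limma-voom with sample weights (limma 3.58.1), medians of ratios, no filter, only the groups compared, a replicate block, libraries thinned to 7753878 counts, exonic length offsets and each library left out. On simulated data for CL versus CH LT-HSCs over 14676 genes, 98% of genes changed 4-fold and 100% of genes changed 16-fold were recovered, with 14 false calls. The simulation gave all genes the same fixed spread, not that of these libraries, and changed only genes above a cutoff on mean CPM. It therefore does not show how often such changes would be found at the spread of these libraries. Folds against 0 counts used a floor of 3 counts over the group, which takes no account of the spread between libraries. The members, gene lists and motifs were chosen with earlier results of these data known. The text names the 10 members, up to 4 called genes per pathway list and comparison by smallest p, *Kit*, *Mapk3*, the other Sprouty, SPRED and MAPK phosphatase genes in the table, and the 2 genes closest by Pearson r to each of the 3 members with the highest mean log2 CPM. Some genes that this rule selects are not reported here. Promoter windows came from RefSeq tables for GRCm38.p6.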

Additional observations from a re-analysis of the deposited data

How the results depend on the processing

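The direction of most member folds held, but calls moved between processing alternatives and with single libraries. In NL versus NH LT-HSCs the 1 called member became 0 with limma-voom, with only the groups compared and with the replicate block, and 0 to 1 when a library was left out. In CL versus CH LT-HSCs the 0 called members became 3 with limma-voom (*Dusp6*, *Spred1* and *Spry1*), 1 without the filter on low counts (*Spry1*) and 5 with only the groups compared, and 0 to 1 when a library was left out. DESeq2 called 1 member (*Dusp6*) in CL versus NL and 1 (*Dusp2*) in CH versus NH LT-HSCs, where 1 (*Dusp2*) was also called without the filter. Without NL replicate 1, members without overlap in NL versus NH LT-HSCs numbered 5, against 1 with it. Called genes numbered 954 in NL versus NH and 1238 in CL versus CH LT-HSCs, against 2993 and 3199 with DESeq2, 2 and 6282 with limma-voom, 1474 and 1717 without the filter, 26 and 4807 with only the groups compared, and 796 and 375 with length offsets. Leaving out a library gave 0 (NH replicate 1 or 2) to 1849 (NL replicate 3) in NL versus NH and 0 (CL replicate 1 or 2, CH replicate 2) to 2084 (NL replicate 2) in CL versus CH LT-HSCs, with 2 without CL replicate 3. In CL versus NL and in CH versus NH LT-HSCs they numbered 14 and 3, against 562 and 190 with DESeq2, 6 and 81 with limma-voom, 247 and 118 without the filter, 0 and 1 with only the groups compared, and 7 and 2 with length offsets. Leaving out a library gave 1 (CL replicate 1 or 2) to 910 (NL replicate 2) in CL versus NL and 0 (CH replicate 2, NH replicate 2 or 3) to 8 (NL replicate 1) in CH versus NH LT-HSCs.

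Of 18 same-numbered pairs of deviations from the group means, 0 correlated above 0.1 (-0.14 to 0.10), beside -0.17 to 0.17 for the other pairs. Of 12 libraries, 4 correlated best with their own number. With 3 libraries per group, these correlations cannot decide whether replicate numbers pair the libraries. With the replicate block, called genes numbered 199 in NL versus NH, 430 in CL versus CH, 1 in CL versus NL and 0 in CH versus NH LT-HSCs, and *Dusp2* had a log2 fold change of 2.07 in normal LT-HSCs (edgeR adjusted p = 0.0622).

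Log2 fold changes that turned sign all belonged to comparisons in which that member did not pass the test. With limma-voom they were -1.38 for *Spry1* in NL versus NH, 2.55 for *Spred2*, 1.43 for *Dusp4* and 1.92 for *Dusp10* in CL versus NL, 1.60 for *Dusp5* in CH versus NH, and -0.51 for *Dusp5* and 1.59 for *Dusp10* in the difference between disease states. With the replicate block they were 0.27 for *Spred2* in CL versus CH and 1.06 for *Spred2*, 1.04 for *Dusp4* and 0.11 for *Dusp10* in CL versus NL. Without the filter they were 0.081 for *Spred2* in CL versus CH and 0.094 for *Dusp6* in NL versus NH, and with length offsets 0.22 for *Dusp6* there. *Dusp5* in NL versus NH was at -0.014 with DESeq2, -0.057 with medians of ratios and -0.055 in thinned libraries. When a library was left out, log2 fold changes ran across 0 in NL versus NH for *Spry1* (-0.36 to 1.19), *Spry2* (-2.52 to 0.12), *Dusp5* (-0.60 to 2.36) and *Dusp6* (-0.49 to 0.31), and in CL versus CH for *Spred2* (-0.44 to 0.25) and *Dusp2* (-0.15 to 0.33). They did so in CL versus NL for *Spred2* (-0.73 to 3.598), *Dusp2* (-0.075 to 0.46), *Dusp4* (-0.66 to 1.57) and *Dusp10* (-0.70 to 1.49), in CH versus NH for *Spry1* (-0.40 to 0.74), *Spry2* (-2.09 to 0.40), *Dusp4* (-2.06 to 1.501) and *Dusp5* (-1.70 to 1.07), and in the difference between disease states for *Dusp4* (-1.57 to 2.42) and *Dusp5* (-0.46 to 2.50). The cause of these shifts was not tested. Counts of 0 and 1 for 5 members in NL replicate 1, and of *Spry4* in 7 libraries, limit the depth of these comparisons.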
